A study of Homo sapiens with 6 samples.

Results

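The immediate early transcription factors considered here are 10 genes, EGR1, EGR2, EGR3, FOS, FOSB, JUN, JUNB, JUND, IER2 and NR4A1, taken as the rows of the count table that carry those symbols. All 10 were among the 19610 gene rows, and 8 had enough counts to be tested. SH-SY5Y is an established line of human neuroblastoma cells that resemble adrenergic neurons, labelled wild type. Transcripts were sequenced in 3 libraries from cells given the solvent DMSO and in 3 from cells given SGC707, a selective inhibitor of the protein arginine methyltransferase PRMT3. Replicates carry the letters A, B and C, and sets of 3 values below follow that order. The sources used here give neither dose nor duration, and nothing says whether replicates are separate cultures. The p-values therefore reflect how these libraries vary, which may be technical variation.

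Immediate early genes are transcribed within minutes of a stimulus from factors already present in the cell, without new protein synthesis. Signals through the ERK kinases and through calcium or cAMP reach serum response factor (SRF), bound at CArG boxes, and CREB, bound at cAMP response elements. Their mRNAs and proteins are short-lived. FOS and JUN proteins pair through leucine zippers to form AP-1, the EGR proteins bind GC-rich DNA through zinc fingers, and NR4A1 is an orphan nuclear receptor. In neurons and neuroblastoma cells these genes respond to growth factors, depolarization and differentiation signals.

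Total counts were 11658728 to 15437602 per library. Mitochondrially encoded genes took 46.7% to 60.7% of counts with DMSO and 24.3% to 37.7% with SGC707, so the values below are in normalised CPM, counts relative to library size after scaling by TMM, a trimmed mean of ratios between libraries. The limit that 0 counts allow is 3 counts, which is 0.181 to 0.293 normalised CPM, by counting error alone. SGC707 C stood apart in base composition. Across its genes, GC content of the transcript and deviation from the gene mean had a Spearman correlation of -0.77. SGC707 A had the largest correlation in the other direction, 0.53, and the remaining libraries lay between -0.13 and 0.34. PRMT3 itself had 14.8 to 17.3 normalised CPM with DMSO and 19.2 to 23.3 with SGC707 (edgeR adjusted p = 0.479). Among 10 adrenergic neuroblastoma markers 9 were detected in every library, while TH, which encodes tyrosine hydroxylase, had 0 counts in all 6 libraries.

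The promoters of 3 members are shown, chosen by their expression and transcripts. EGR1 had the largest difference between the groups. JUNB and JUND have the most GC-rich transcripts of the members and their lowest values in SGC707 C. Whether promoter sequence bears on these values was not tested. Each sequence is the 250 bases before the RefSeq transcription start on GRCh38.p14, 5′ to 3′ in the direction of transcription. Capitals mark CArG boxes, the core cAMP response letters TGACG on either strand, the full element TGACGTCA and TATAAA.
EGR1: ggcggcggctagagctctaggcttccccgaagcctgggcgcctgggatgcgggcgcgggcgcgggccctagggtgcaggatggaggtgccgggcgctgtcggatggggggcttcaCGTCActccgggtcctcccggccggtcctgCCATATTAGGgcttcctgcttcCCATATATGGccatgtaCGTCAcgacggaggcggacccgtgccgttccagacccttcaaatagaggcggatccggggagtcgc
JUNB: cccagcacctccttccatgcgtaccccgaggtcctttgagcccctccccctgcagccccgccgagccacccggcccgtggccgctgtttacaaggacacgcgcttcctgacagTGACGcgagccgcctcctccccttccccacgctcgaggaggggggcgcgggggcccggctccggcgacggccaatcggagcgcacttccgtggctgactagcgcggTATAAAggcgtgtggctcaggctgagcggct
JUND: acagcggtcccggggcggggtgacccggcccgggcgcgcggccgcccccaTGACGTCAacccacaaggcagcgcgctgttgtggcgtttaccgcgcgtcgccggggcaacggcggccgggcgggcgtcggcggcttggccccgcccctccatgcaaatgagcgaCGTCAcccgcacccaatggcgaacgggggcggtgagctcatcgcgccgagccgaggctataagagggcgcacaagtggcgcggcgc
They lie at chr5:138465229-138465478 on the plus strand, chr19:12791236-12791485 on the plus strand and chr19:18281623-18281872 on the minus strand. EGR1 has a CArG box at positions -105 to -96 and another at -83 to -74, counted from the start site, with TGACG on the minus strand at -135 to -131 and at -66 to -62. JUNB has TGACG at -137 to -133 and TATAAA at -31 to -26. JUND has the full TGACGTCA at -200 to -193, which contains TGACG on both strands, and TGACG on the minus strand at -86 to -82. Of 35114 RefSeq windows of this length, 1.16% hold a CArG box, 1.65% hold TGACGTCA, 21.2% hold TGACG and 10.7% hold TATAAA, on either strand. RefSeq windows matched 9 of the 10 members, with 12 windows in all. TGACG occurred in windows of 8 members, a CArG box in those of EGR1 and EGR2, and TATAAA in those of FOS, FOSB and JUNB. Sites outside these 250 bases were not searched, so a member without a match here may have one elsewhere. These are matches of letters, not measured binding.

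Of the 8 tested members none passed the test across all genes, and EGR1 had the largest difference. By edgeR's quasi-likelihood test 0 members rose or fell at an adjusted p under 0.05, beside 0.0246% of all 12196 tested genes. At an unadjusted p under 0.05 there were 2, EGR1 and EGR3, both lower with SGC707, where 12.8% of all tested genes reached that level and 7.13% did so as lower genes. DESeq2 called 1 member, EGR1, beside 2.57% of all genes, and limma-voom called 0, beside 0.0164%. Of the tested members 7 had values below 0 on the log2 fold change scale and 1, IER2, a value above 0. Their median was -0.32, beside 0.02 for all tested genes. The SGC707 and DMSO libraries did not overlap in 2 members, EGR1 and EGR3, both lower, beside 9.78% of tested genes lower and 20.6% in either direction.

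EGR1 (GRCh38 chromosome 5, 138465490 to 138469315), a zinc finger factor of growth factor and neuronal activity responses, stood at 35.6, 37.3 and 17.6 normalised CPM with DMSO. With SGC707 it stood at 12.4, 9.81 and 6.62. Each SGC707 library was below each DMSO library, and DMSO C lay well below the other DMSO libraries. The means were 30.2 ± 10.9 and 9.63 ± 2.92 normalised CPM (SD, n = 3), a fitted ratio of 0.320. On the log2 scale the change was -1.64 (SE 0.35, 95% interval -2.45 to -0.84, edgeR adjusted p = 0.187), which put EGR1 at rank 99 of all tested genes by p. In DESeq2 the difference passed, with a log2 fold change of -1.66 and an adjusted p of 8.19e-04, beside 2.12% of genes called lower by that tool. The call of EGR1 thus depended on the method, while its size ranged from -1.92 without DMSO C to -1.44 without SGC707 C when 1 library was left out. With scaling by library totals alone the log2 fold change was -0.89, and that scaling put the median of all tested genes at 0.69. Without the mitochondrial genes it was -1.65.

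EGR3 (chromosome 8, 22687659 to 22693302), a related zinc finger factor needed for muscle spindle development, was counted sparsely. It had 15, 14 and 15 counts with DMSO, or 1.43, 1.37 and 1.35 normalised CPM. With SGC707 there were 14, 7 and 9 counts, or 0.846, 0.440 and 0.701 normalised CPM. The raw counts of DMSO B and SGC707 A are equal, and the groups separate after scaling, since SGC707 A has more counts on nuclear genes. Exact 95% Poisson intervals ran from 7.65 to 23.5 counts for SGC707 A and from 2.81 to 14.4 counts for SGC707 B, by counting error alone. EGR3 had a fitted log2 change of -1.05 (SE 0.40, 95% interval -1.98 to -0.12, edgeR adjusted p = 0.344), and -0.38 with library totals alone.

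EGR2 (chromosome 10, 62811996 to 62919900), the family member best known for Schwann cell myelination, was at the limit of detection. It had 0 counts in all 3 DMSO libraries and 4, 1 and 0 counts with SGC707. The means of both groups lie under the level that 0 counts allow, although SGC707 A alone exceeded it with its 4 counts (exact 95% Poisson interval 1.09 to 10.2), and no fold change is given.

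NR4A1 (chromosome 12, 52022832 to 52059507), the nuclear receptor also called Nur77, stood at 7.34, 8.11 and 7.74 normalised CPM with DMSO. It stood at 9.25, 6.67 and 3.20 with SGC707. SGC707 A lay above all DMSO libraries and SGC707 B and C below them, so the groups overlap. For NR4A1 the log2 fold change was -0.27 (SE 0.37, 95% interval -1.12 to 0.57, edgeR adjusted p = 0.788), and 0.04 without SGC707 C.

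**Figure D1:**
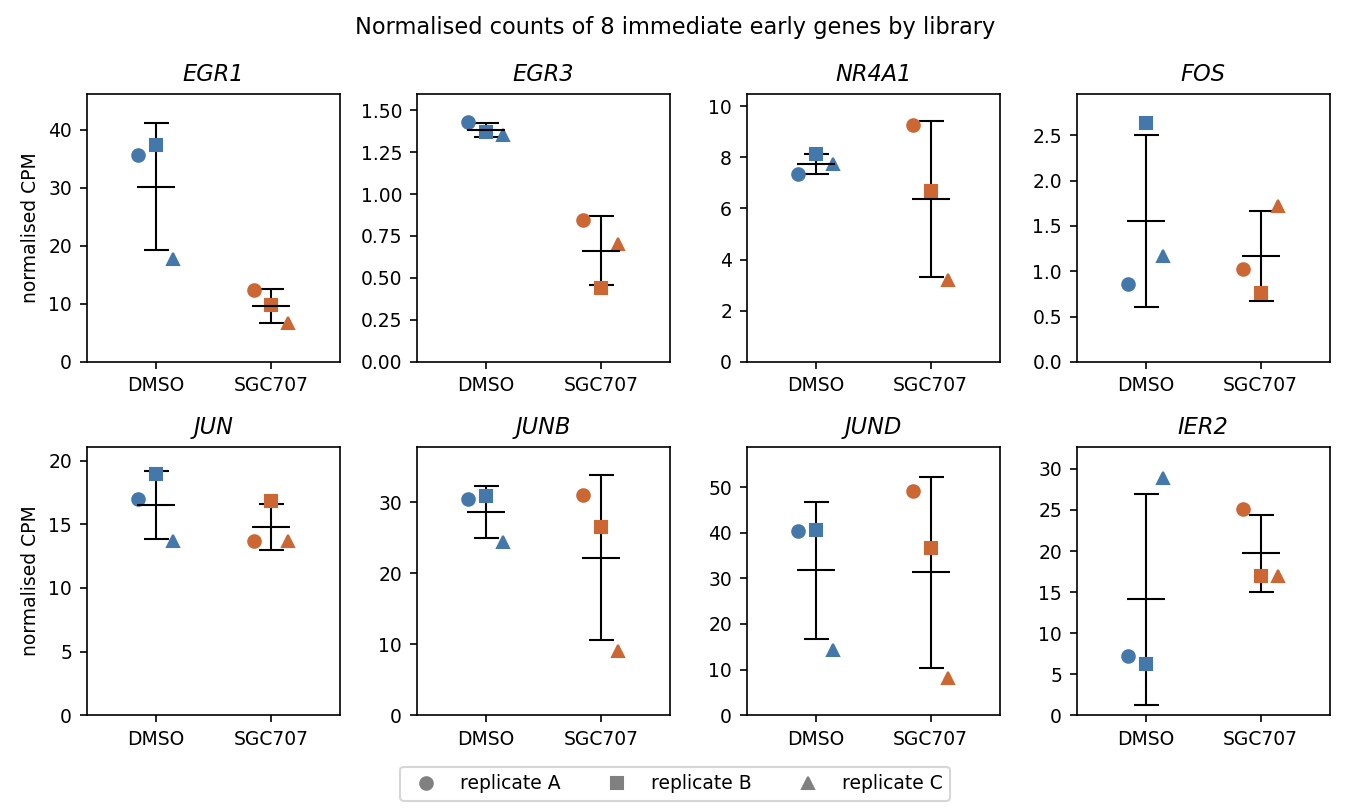
Normalised CPM (vertical axis, linear, from 0) of the 8 tested members in each DMSO (blue) and SGC707 (orange) library, with the marker shape giving the replicate letter and black bars the mean ± SD of 3 libraries. EGR1 and EGR3 are the members in which all SGC707 points lie below all DMSO points, and SGC707 C is the lowest library for EGR1, JUNB, JUND and NR4A1.

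FOS (chromosome 14, 75278774 to 75282230), which needs a JUN partner to bind DNA, was low in every library. It had 9, 27 and 13 counts with DMSO and 17, 12 and 22 counts with SGC707. In normalised CPM these were 0.858, 2.64 and 1.17 with DMSO and 1.03, 0.755 and 1.71 with SGC707. DMSO B was the highest library and the groups overlap. The log2 fold change was -0.43 (SE 0.53, 95% interval -1.66 to 0.81, edgeR adjusted p = 0.773), and it turned to 0.18 without DMSO B.

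FOSB (chromosome 19, 45467995 to 45475179), the close relative of FOS linked to lasting neuronal stimulation, did not reach the filter on low counts. It had 1, 1 and 7 counts with DMSO and 3, 4 and 0 with SGC707. DMSO C held 7 of the 9 DMSO counts, and a difference could not be detected at such counts.

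JUN (chromosome 1, 58780788 to 58784327), the AP-1 subunit that can pair with itself or with FOS proteins, kept within 13.7 to 19.0 normalised CPM in all 6 libraries. Its values were 17.0, 19.0 and 13.7 normalised CPM with DMSO and 13.7, 16.9 and 13.7 with SGC707. The highest library exceeded the lowest 1.39 times within DMSO and 1.23 times within SGC707, and the groups overlap. For JUN the log2 fold change was -0.16 (SE 0.20, 95% interval -0.64 to 0.31, edgeR adjusted p = 0.773).

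JUNB (chromosome 19, 12791496 to 12793315), an AP-1 subunit that often opposes JUN at shared targets, stood at 30.4, 30.9 and 24.3 normalised CPM with DMSO. It stood at 30.9, 26.5 and 8.96 with SGC707. SGC707 A and B lay within the DMSO range or close to it, and SGC707 C far below. JUNB had a value of -0.36 on the log2 fold change scale (SE 0.40, 95% interval -1.30 to 0.57, edgeR adjusted p = 0.738), and 0.0050 without SGC707 C.

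JUND (chromosome 19, 18279760 to 18281622), the JUN family member expressed in most resting cells, had the widest spread within SGC707 of the tested members. It stood at 40.3, 40.6 and 14.3 normalised CPM with DMSO and at 49.1, 36.7 and 8.18 with SGC707. The libraries with the letter C were the low ones in both groups, and the highest SGC707 library exceeded the lowest 6.003 times. JUND had a log2 fold change of about 0, at -0.01 (SE 0.62, 95% interval -1.44 to 1.41, edgeR adjusted p = 0.995), an interval that includes a doubling and a halving. It was 0.43 without SGC707 C, -0.37 without DMSO C, and -0.49 without SGC707 A.

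IER2 (chromosome 19, 13150415 to 13154908), which encodes a small nuclear protein, was the tested member with a positive log2 fold change. It stood at 7.15, 6.26 and 28.9 normalised CPM with DMSO, where the raw counts were 75, 64 and 321. With SGC707 it stood at 25.1, 17.0 and 17.0. DMSO C was the highest of all 6 libraries, while DMSO A and B lay below every SGC707 library. The log2 fold change was 0.48 (SE 0.56, 95% interval -0.81 to 1.77, edgeR adjusted p = 0.752). Without DMSO C it was 1.55 (edgeR adjusted p = 0.125), and without DMSO B it was 0.12.

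**Figure D2:**
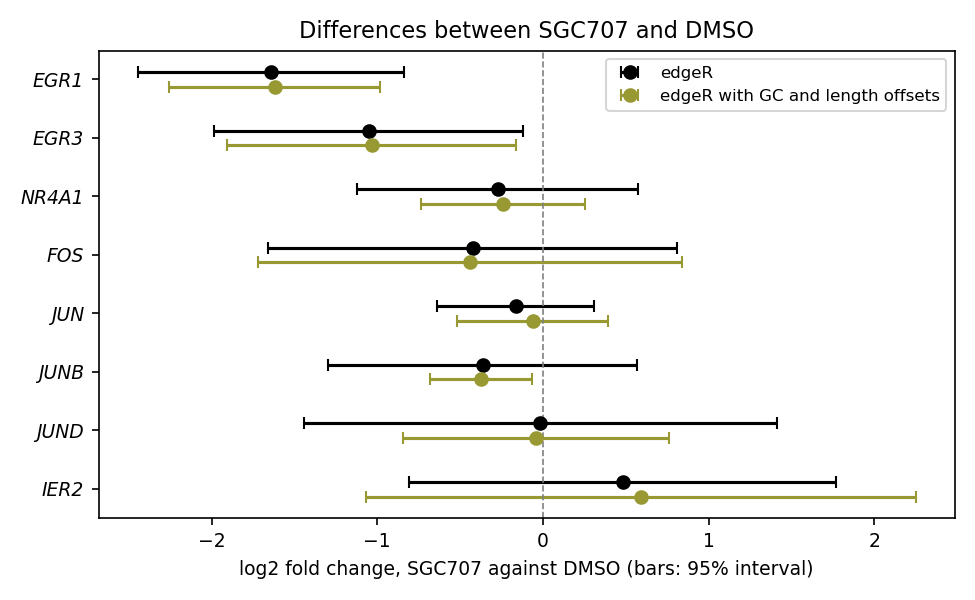
Log2 fold change of SGC707 against DMSO for the 8 tested members (horizontal axis), with bars for the 95% interval, from edgeR as fitted (black) and with offsets for GC content and length (olive). The black intervals of EGR1 (-2.45 to -0.84) and EGR3 (-1.98 to -0.12) lie below 0, and those of the other 6 members include 0.

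The transcripts of all 10 members had a GC content above the 48.4% median of tested genes, from 50.9% for EGR2 to 69.7% for JUND. JUND exceeded 99.6% of tested genes in GC content, JUNB 95.9% and IER2 89.2%. In SGC707 C the log2 deviation from the mean of 6 libraries was -1.69 for JUND, -1.39 for JUNB, -1.30 for EGR1, -1.07 for NR4A1, -0.42 for EGR3, -0.18 for JUN, 0.23 for IER2 and 0.47 for FOS. JUND and JUNB, the highest in GC content, had the lowest of these values. Not all members followed the order of GC content. IER2, the third in GC content, lay above its mean, and EGR1 lay further below than JUN. After offsets for GC content and length, JUND stood at 34.3, 35.4 and 14.97 CPM with DMSO and at 30.9, 30.0 and 20.5 with SGC707. JUNB then stood at 27.4, 28.3 and 25.1 with DMSO and at 21.6, 22.6 and 17.7 with SGC707. The low JUNB and JUND values of SGC707 C moved toward the other libraries, while the low JUND value of DMSO C moved little, from a deviation of -0.89 to -0.82. The offsets also lowered SGC707 A, from 49.1 to 30.9 CPM for JUND and from 30.9 to 21.6 for JUNB. SGC707 B fell too, from 26.5 to 22.6 CPM for JUNB. In JUNB both libraries then lay below every DMSO library, which neither had done before.

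The same offsets left EGR1 lower in every SGC707 library. Its values were 34.2, 36.4 and 17.9 CPM with DMSO and 10.9, 9.24 and 8.46 with SGC707, and the log2 fold change was -1.62 (SE 0.27, edgeR adjusted p = 0.0581). EGR3 had -1.03 (edgeR adjusted p = 0.158), and JUNB -0.37 (SE 0.13, edgeR adjusted p = 0.153). The groups then did not overlap in 3 members, EGR1, EGR3 and JUNB, all lower, beside 12.9% of tested genes lower. IER2 had 6.45, 5.79 and 29.6 CPM with DMSO and 19.5, 15.1 and 28.8 with SGC707, so DMSO A and B remained the low libraries. No member passed with the offsets, beside 0.139% of all tested genes.

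**Figure D3:**
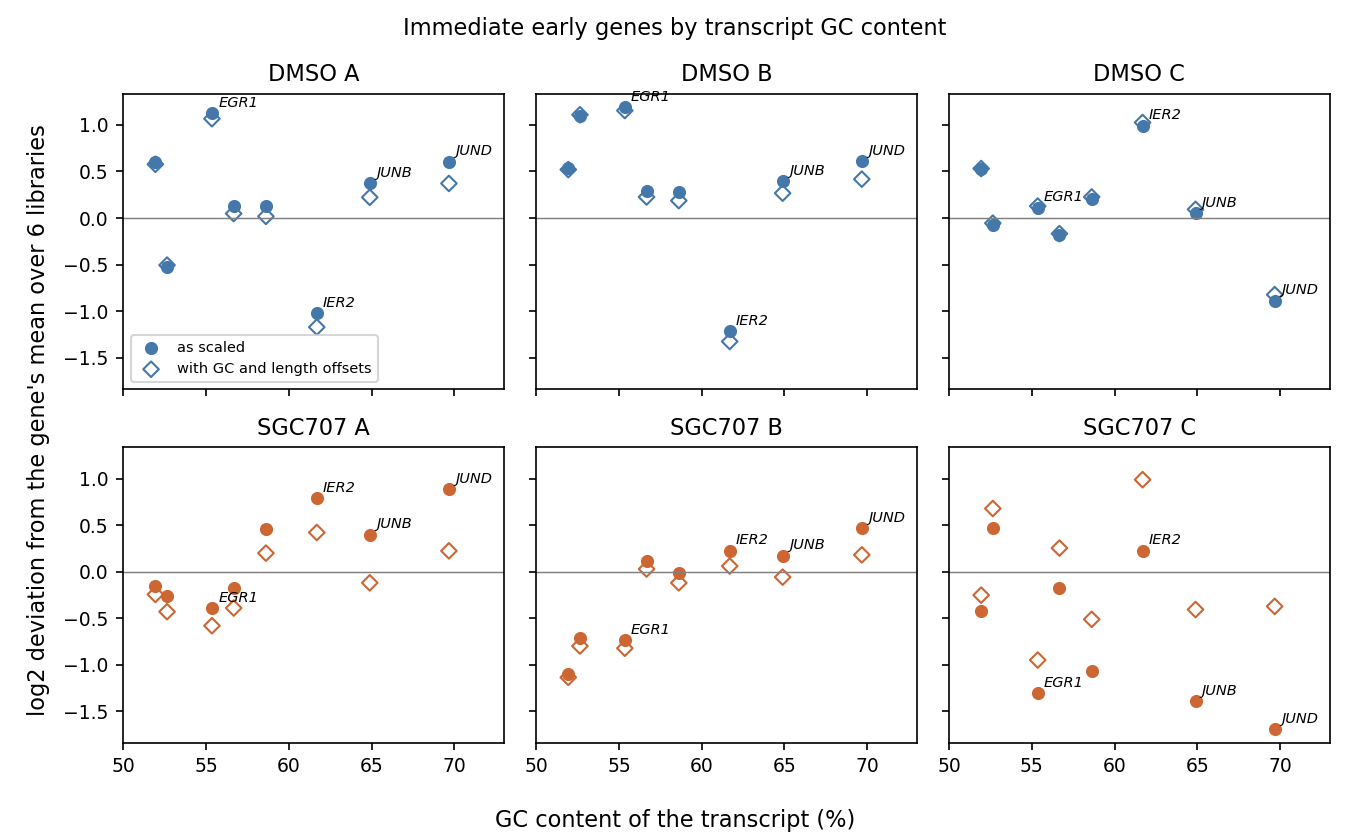
Each panel is 1 library, with the GC content of a member's transcript on the horizontal axis (percent) and the log2 deviation from that gene's mean over 6 libraries on the vertical axis, as scaled by TMM (filled) and with offsets for GC content and length (open). In SGC707 C the filled points of JUND (-1.69) and JUNB (-1.39) are the lowest and their open points lie at -0.37 and -0.41, while EGR1 is below 0 in all 3 SGC707 panels with and without offsets.

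Ratios of counts within a library need no scaling between libraries. Per kilobase of transcript, EGR1 was read 2.36, 2.22 and 1.45 times as often as JUN with DMSO. With SGC707 the ratio was 1.02, 0.657 and 0.545, so each SGC707 library lay below each DMSO library. EGR1 and JUN differ little in transcript GC content, at 55.4% and 56.7%. Within the JUN family, JUND took 50.2%, 49.4% and 30.9% of reads per kilobase with DMSO and 55.8%, 50.5% and 33.3% with SGC707. JUNB took 36.0% to 37.3% with SGC707, and 38.7%, 38.5% and 53.6% with DMSO. JUN took 11.1% to 15.5% with DMSO, and 8.20%, 12.2% and 29.4% with SGC707. With the GC and length offsets the shares in SGC707 C were 42.3% for JUND, 37.5% for JUNB and 20.2% for JUN, so JUND then exceeded JUNB there, while in DMSO C JUND stayed the lower at 31.3% against 53.6%.

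**Figure D4:**
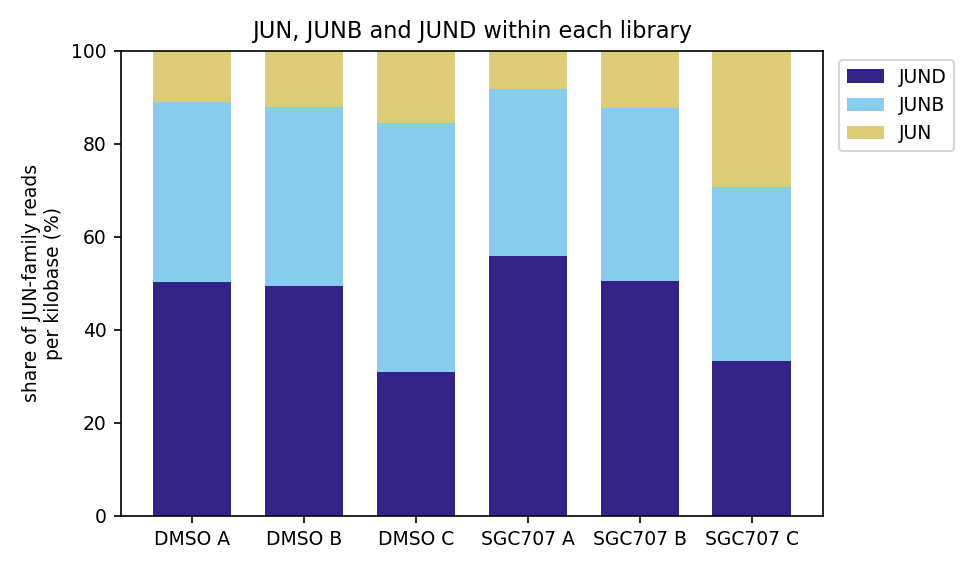
Stacked bars give the share of JUND (dark blue), JUNB (light blue) and JUN (yellow) among the JUN family reads per kilobase of transcript in each library, in percent and without offsets. JUND takes a larger share than JUNB in the A and B libraries of both groups, and its smallest shares are in DMSO C (30.9%) and SGC707 C (33.3%).

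On the scale of normalised CPM per kilobase, the order of levels with DMSO was JUND (17.0 ± 8.10), JUNB (15.7 ± 2.02), EGR1 (9.62 ± 3.47), IER2 (4.81 ± 4.37), JUN (4.67 ± 0.753), NR4A1 (2.203 ± 0.110), FOS (0.721 ± 0.441), EGR3 (0.319 ± 0.0097) and FOSB (0.0727 ± 0.0816) (SD, n = 3), with EGR2 at 0. Neighbours whose 3 libraries overlap were JUND and JUNB, EGR1 and IER2, and IER2 and JUN. With SGC707 the order was JUND (16.8 ± 11.3), JUNB (12.2 ± 6.38), IER2 (6.72 ± 1.604), JUN (4.17 ± 0.512), EGR1 (3.07 ± 0.929), NR4A1 (1.81 ± 0.865), FOS (0.540 ± 0.229), EGR3 (0.153 ± 0.0474), FOSB (0.0382 ± 0.0344) and EGR2 (0.0342 ± 0.0423). EGR1 thus stood at rank 3 with DMSO and rank 5 with SGC707. There JUND and JUNB, JUNB and IER2, JUN and EGR1, EGR1 and NR4A1, and FOSB and EGR2 overlap.

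Most members have few exons. By the longest protein-coding transcript in GENCODE 29, 4 members (JUN, JUNB, JUND and IER2) have 1 exon, as have 5.57% of 19256 genes. Only NR4A1, with 8 exons, has more than 4, while 28.6% of all genes have 4 or fewer. The pentamer ATTTA, the core of the AU-rich elements that mark short-lived mRNAs, occurs in the 3′ UTR of 9 members, all but IER2, and of 67.3% of the 18751 genes with a 3′ UTR. FOS has 5 such pentamers, the most of the members, and EGR1 has 1. The longer TATTTAT occurs in 4 members, FOS, FOSB, JUN and JUND, and in 31.3% of genes. EGR1 and EGR3, the members with non-overlapping groups, hold no TATTTAT, and neither do JUNB, EGR2, NR4A1 and IER2.

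Genes close to the members in family or pathway gave no call in edgeR either, beside 0.0246% of all 12196 tested genes. Medians below are of log2 fold changes, beside 0.02 for all tested genes, and genes named for their p are those of at least 5 CPM with the smallest p in their list. Among 18 relatives in the AP-1, EGR and NR4A families 11 were tested, 7 with positive and 4 with negative values and a median of 0.10. Named by this rule were ATF7 (-0.49, edgeR adjusted p = 0.313) and the small MAF gene MAFG (0.88, edgeR adjusted p = 0.341). FOSL2, a FOS relative, stood at a mean of 51.1 normalised CPM with DMSO and 49.6 with SGC707, and NR4A2 had 0 counts in all 6 libraries. Among 28 other immediate early genes 19 were tested, with 4 positive and 15 negative values and a median of -0.13. The clock gene PER1 had 21.5, 25.03 and 13.1 normalised CPM with DMSO and 12.6, 11.01 and 6.16 with SGC707 (log2 fold change -0.999, edgeR adjusted p = 0.303). MCL1, an inhibitor of apoptosis, stood at 166.8 to 196.8 with DMSO and 214.0 to 219.2 with SGC707 (log2 fold change 0.28, edgeR adjusted p = 0.430).

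Feedback regulators, which dampen ERK signals or destabilize the mRNAs, numbered 17, all tested, with 8 positive and 9 negative values and a median of -0.11. Among those with a mean of at least 5 CPM, SPRY4 (-0.45, edgeR adjusted p = 0.316) and SPRED2 (-0.40, edgeR adjusted p = 0.356) had the smallest p. Both are inhibitors of RAS to ERK signalling. NAB2, a corepressor that binds EGR proteins and is induced by EGR1, had 0.09 (edgeR adjusted p = 0.914). Upstream factors numbered 27, all tested, with 7 positive and 20 negative values and a median of -0.21. The histone acetyltransferase gene EP300 stood at 157.8, 174.3 and 101.9 normalised CPM with DMSO and at 67.2, 69.7 and 82.8 with SGC707 (log2 fold change -0.98, edgeR adjusted p = 0.202). MEF2D, a factor of activity-dependent transcription, had -0.64 (edgeR adjusted p = 0.258), and SRF -0.21 (edgeR adjusted p = 0.757). Among 20 genes known as EGR1 or AP-1 targets 14 were tested, 7 positive and 7 negative, with a median of -0.01. The matrix protease gene MMP2 (-0.86, edgeR adjusted p = 0.163) and the synaptic vesicle gene SYN1 (-0.88, edgeR adjusted p = 0.256) had the smallest p.

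At an unadjusted p under 0.05, 8 of the 27 upstream factors were lower and 0 higher, beside 7.13% of all tested genes lower. The 11 tested relatives held 2 higher and 1 lower, and the 19 other immediate early genes 0 and 1. The 17 feedback regulators held 0 and 4, and the 14 targets 0 and 2, beside 12.8% of tested genes in either direction. Groups did not overlap in 9 upstream factors, all lower, beside 9.78% of tested genes lower and 20.6% in either direction. Higher and lower counts of this kind were 1 and 1 for relatives, 1 and 3 for other immediate early genes, 1 and 4 for feedback regulators and 0 and 2 for targets. DESeq2 called 2 of the 27 upstream factors, 2 of the 14 tested targets and 0 genes of the other 3 lists. It called 2.57% of all genes. In each list limma-voom called 0, beside 0.0164% of all tested genes.

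The 5 genes most like EGR1 over the 6 libraries, by the root mean square difference of centred log2 CPM among 10186 genes with a mean of at least 5 CPM, were ATN1, SCRT2, FCMR, DOK3 and PLEKHG2. ATN1, which encodes atrophin-1, had the smallest difference, 0.0465, where the median of all compared genes was 0.949. It stood at 627.6, 667.5 and 332.9 normalised CPM with DMSO and at 211.2, 176.3 and 118.3 with SGC707. As in EGR1, DMSO C lay between the other DMSO libraries and the SGC707 libraries. The differences of the other 4 were 0.153 to 0.195, and the log2 fold changes of all 5 lay between -1.69 and -1.31 with edgeR adjusted p from 0.163 to 0.266. The 5 transcripts had GC contents of 55.1% to 65.3%, beside 55.4% for EGR1 and a median of 48.4% for tested genes. These genes were picked for their likeness to EGR1, so the values are a description.

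**Figure D5:**
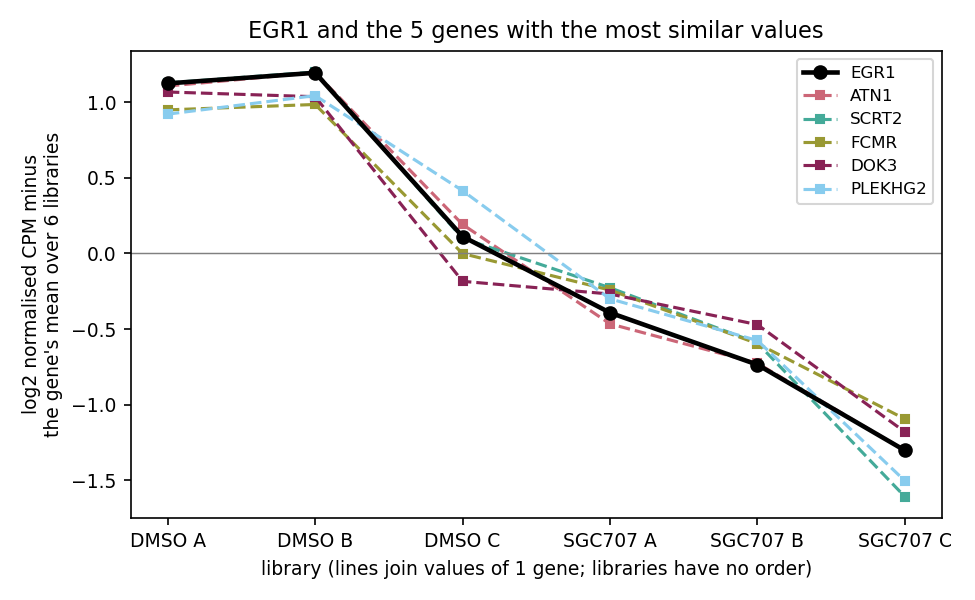
Log2 normalised CPM minus each gene's mean over 6 libraries (vertical axis) for EGR1 (black) and the 5 genes with the most similar values (coloured, dashed) in the 6 libraries on the horizontal axis. Every gene is highest in DMSO A and B and lowest in SGC707 C, and ATN1 follows EGR1 most closely.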

How the data were processed

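Deposited read counts per gene symbol, made by the authors and not scaled between libraries, were analysed for 6 libraries of SH-SY5Y cells, grouped by the labelled treatment. The tools named are HISAT2 and StringTie, and the build GRCh38, per the submitters' processing notes. Versions, annotation, strandedness and handling of shared reads are not stated in what was used here, so counts of genes that overlap others or share sequence are uncertain. The sources used here name no molecular identifiers, and intervals and floors cover counting error only.

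The test was that of edgeR 4.0.16 in R 4.3.3 (filterByExpr, TMM, robust glmQLFit and glmQLFTest, no covariate) over 12196 genes, with Benjamini-Hochberg adjusted p-values and a threshold of 0.05. The standard error is the size of the log2 fold change over the root of F. Alternatives were RLE, library totals, no filter, DESeq2 1.42.0, a stricter filter (mean count of 50, 1 CPM in 3 libraries), limma-voom (limma 3.58.1), each library left out, the replicate letter as a block, a threshold of 0.01, no mitochondrial genes, and lowess offsets (span 0.3) for GC content and length, alone and with the block. Trends were fitted over 11536 nuclear genes whose mean count was 20 or more, and GENCODE 29 gave both properties for 99.3% of tested genes. On simulated data for this comparison over 12087 genes, edgeR found 51% of 2-fold changes and 95% of 4-fold changes and made 5 false calls. The changes were placed in genes with a mean count above 20, and no GC trend was simulated. EGR3 and FOS have mean counts below that level, so these shares do not cover them. Figures were drawn with matplotlib 3.10.9.

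The members and gene lists were chosen with earlier results of these data known. Named are all members, PRMT3, the 2 genes with the smallest p of at least 5 CPM in each related list and the 5 genes most like EGR1 and JUND. FOSL2, NR4A2, NAB2, SRF and the cell type markers TH, GATA3, VIM, FN1, COL1A1, SOX10 and PTPRC are named outside this rule and were chosen after their values were seen. A marker gene is not reported here.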

Additional observations from a re-analysis of the deposited data

How the results depend on the processing

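No member passed in edgeR under any alternative, beside 0.0246% of all tested genes in the main fit. Across all genes the edgeR alternatives called 0 to 2574 as higher and 0 to 685 as lower. DESeq2 called 1 member, EGR1, beside 2.57% of all genes. The log2 fold changes of EGR1 (-1.92 to -0.89 over 16 alternatives, adjusted p from 8.19e-04 to 0.704) and EGR3 (-1.28 to -0.38 over 15, adjusted p from 0.144 to 0.862) stayed negative, and that of IER2 (0.12 to 1.55 over 16) stayed positive. DESeq2 gave no adjusted p for EGR3 and FOS, and the stricter filter removed both. With library totals alone, which moved the median of all genes to 0.69, FOS (0.26), JUN (0.54), JUNB (0.39), JUND (0.81) and NR4A1 (0.46) turned positive. JUND was 0.0030 with the GC and length offsets and the replicate block. Leaving out 1 library gave -0.79 to 0.18 for FOS, -0.68 to 0.0050 for JUNB, -0.49 to 0.43 for JUND and -0.64 to 0.037 for NR4A1. The cause was not tested.

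Over all genes 1 rose and 2 fell in edgeR. The counts of higher and lower genes were 2574 and 31 with library totals alone, 1 and 5 with no filter, 52 and 249 with DESeq2, 0 and 2 with limma-voom, 2 and 15 with the offsets, 1 and 1 with the offsets and the replicate block, and 0 and 0 at an adjusted p under 0.01 or with the replicate block. Fits without 1 library gave 0 to 462 higher and 0 to 685 lower genes, the most without SGC707 C. The letters were not taken as pairs, since no label says that they mark shared cultures or days. Deviations of libraries with the same letter had correlations across genes of 0.080, -0.023 and 0.0998. Of 6 libraries 3 correlated best with their own letter, and these values do not settle whether the letters are pairs. EGR2, EGR3, FOS and FOSB are limited by depth.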

Other observations

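The 5 genes most like JUND over the 6 libraries were ZDHHC12, PLPPR3, TBCEL, TSPAN4 and FNDC10, with root mean square differences of 0.151 to 0.298 beside a median of 0.994 for all compared genes. Their libraries lettered C were the 2 lowest in all 5 genes. TBCEL, with a transcript GC content of 39.0%, stood at 47.3, 49.8 and 11.3 normalised CPM with DMSO and at 44.5, 46.9 and 10.9 with SGC707. The transcripts of the other 4 had GC contents of 64.1% to 71.3%, and that of JUND 69.7%.

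Summed normalised CPM of 10 adrenergic neuroblastoma markers ran from 4562 to 5508 with DMSO and from 3574 to 4235 with SGC707, and the 9 tested ones had a median log2 fold change of -0.27. Their part in the EGR1 difference was not tested. GATA3, a transcription factor gene of this list, stood at 627.3 to 937.0 normalised CPM with DMSO and 365.5 to 379.4 with SGC707 (log2 fold change -1.14, edgeR adjusted p = 0.142). All 9 tested markers had negative log2 fold changes, and in 4 each SGC707 library lay below each DMSO library, beside 9.78% of all tested genes. In edgeR 0 of these markers passed, beside 0.0246% of all tested genes. At an unadjusted p under 0.05 there was 1 lower marker, beside 7.13% of tested genes. DESeq2 called 1, beside 2.57% of all genes, and limma-voom 0, beside 0.0164%. The 6 mesenchymal markers summed to 153.9 to 198.5 with DMSO and 162.6 to 179.1 with SGC707, a sum mostly of VIM, at a mean of 150.1 and 155.7 normalised CPM. Of the 4 tested ones 1 had a positive and 3 a negative log2 fold change, with a median of -0.30. FN1 (-0.49, edgeR adjusted p = 0.345) and COL1A1 (-0.998, edgeR adjusted p = 0.317) had an unadjusted p under 0.05. That level was reached by 7.13% of tested genes as lower genes. Both also had groups that did not overlap, beside 9.78% of tested genes lower. COL1A1 had only 14 to 26 counts per library. Of the 4 tested mesenchymal markers 0 passed in edgeR, beside 0.0246% of all tested genes. The Schwann-like, epithelial and blood cell lists, of 4, 4 and 2 genes, summed to at most 2.74 normalised CPM in any library, with SOX10 and PTPRC at 0 counts throughout. In bulk samples fewer cells of a type and less RNA per cell cannot be told apart.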
